A study of Mus musculus with 32 samples.

Results

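A set of 9 genes whose products mark activated fibroblasts or shape the matrix around cells was followed through the kidneys of mice that lack the collagen gene Col4a3. They were Fn1, Tnc, Ccn2, Thbs1, Vim, Acta2, Tagln, Postn and Sparc, chosen by name out of the 22180 genes measured. The choice was made with earlier results of these data known, so counts among the 9 describe a set not chosen blind. Each gene was read from an array feature naming that gene alone, and the feature with the highest mean was taken where a gene had more than 1. Whole kidneys came from male mice of strain 129 in 4 groups of 8: Col4a3-/- (KO) at 7 weeks, littermate Col4a3+/+ (WT) at 7 weeks, KO at 4 weeks and WT at 4 weeks. Each of the 32 mice gave 1 Affymetrix Mouse Gene 2.0 ST array, a chip that reads whole transcripts. No treatment was named in the labels, and which stretch of Col4a3 the KO allele lacks was not given in the sources used here. Values are log2 signals after RMA, so a difference of 1 is a doubling of signal.

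The product of Col4a3 is a type IV collagen chain that the filtering membrane of the glomerulus needs, and its loss models Alport syndrome, an inherited kidney disease that progresses to scarring. Scarring kidneys accumulate myofibroblasts, contractile cells derived largely from resident fibroblasts and pericytes, which carry smooth muscle actin and lay down matrix. Matricellular proteins are secreted into that matrix and act mainly on cell adhesion and growth factor signalling rather than as scaffolding, and many are induced by TGF-beta.

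Correlations between arrays of a group ran at 0.965 to 0.995, and the number of arrays limits the precision of each estimate. At 7 weeks Col4a3 signal averaged 7.27 ± 0.34 in the KO group against 8.92 ± 0.10 in the WT group, and at 4 weeks 7.91 ± 0.25 in the KO group against 8.90 ± 0.29 in the WT group (SD, n = 8 each). KO and WT ranges of Col4a3 did not overlap at either age. The kidney epithelial marker Lrp2 stood at the 99.5 percentile of all gene means. The leading component of all genes, with 37.3% of the variance, split the 7-week KO mice into 2 sets of 4 by a gap of 0.515 of their range. At 4 weeks KO mouse 4 stood apart on that component, at 9.26 against -31.2 to -10.3 in the 7 other KO mice, and it had the lowest array weight of its group (0.337). Among WT mice at 4 weeks, mouse 8 had the highest mean of 12 macrophage markers, 7.33, and of 7 T cell markers, 6.00. WT mouse 5 came next for macrophage markers at 7.03, while the 6 other WT mice at 4 weeks lay between 6.40 and 6.48. In a whole kidney, more cells of a type and more RNA per cell cannot be told apart.

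At 7 weeks all 9 genes were higher in KO than in WT kidneys, by 0.87 to 3.54 on the log2 scale, with a median of 1.58 (limma, Benjamini-Hochberg adjustment over all genes). Tnc, Fn1 and Vim differed by more than 4-fold, Acta2, Tagln and Postn by about 3-fold, and Sparc, Thbs1 and Ccn2 by about 2-fold or less. Of all genes tested, 15.6% passed as higher in KO at adjusted p under 0.05, 16.7% as lower and 32.3% in either direction, and the median difference over all genes was -0.06. After array median centring all 9 genes still passed, but the calls over all genes became 2568 higher and 8324 lower, so that 23.6% of calls were higher, against 48.4% as deposited. For 8 of the 9 genes every KO mouse lay above every WT mouse, which held for 7.62% of all genes in that direction.

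**Figure D1:**
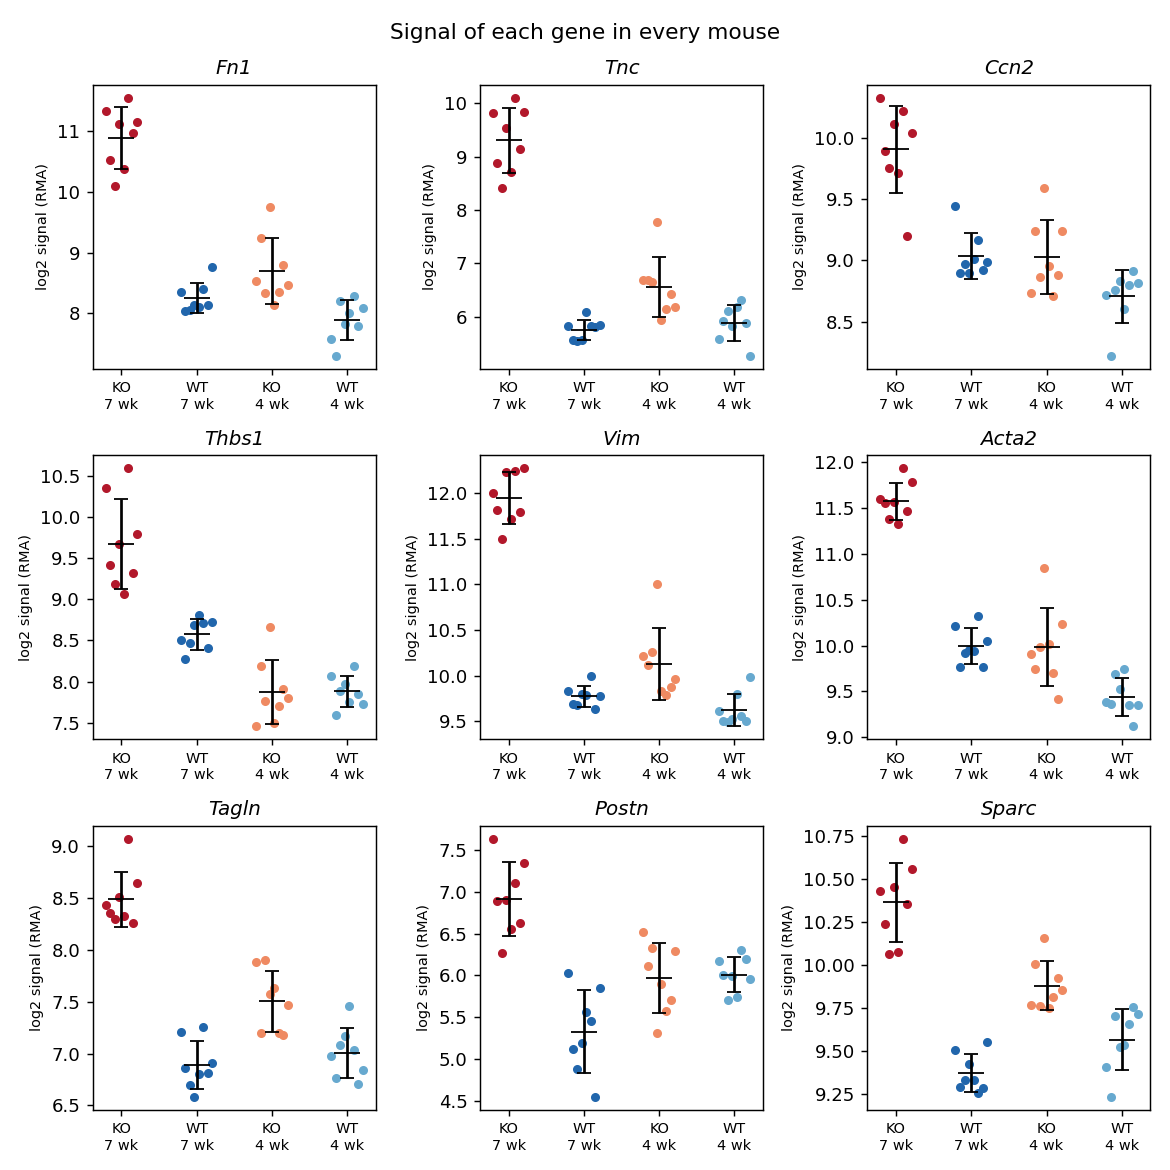
Signal of each gene in every mouse, with log2 RMA signal on the y axis and the 4 groups on the x axis. Points are mice, long lines are group means and bars are 1 SD (n = 8 per group); the y axes differ between panels and do not start at 0. KO mice at 7 weeks lie above all WT mice of that age in 8 of the 9 panels, and in the Ccn2 panel 7 of the 8 do.

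The adhesive glycoproteins Tnc and Fn1 had the largest mean differences of the 9 genes. Fn1 (chromosome 1, 71585473 to 71653280, GRCm38.p6) encodes fibronectin, which assembles into fibrils that other matrix proteins bind. Its lowest, median and highest signals were 10.10, 11.05 and 11.56 in KO mice and 8.04, 8.14 and 8.76 in WT mice. The lowest KO mouse thus stood above the highest WT mouse, and the difference was 2.64 ± 0.20 (SE), or 6.25-fold (limma adjusted p = 3.49e-12). Tnc (chromosome 4, 63959785 to 64047015) encodes tenascin-C, a hexameric glycoprotein with little presence in most adult tissues that returns at sites of injury. Tnc signals were 8.41, 9.33 and 10.10 at the lowest, median and highest in KO mice, against 5.55, 5.82 and 6.09 in WT mice. The groups lay far apart, and the difference of 3.54 ± 0.21, an 11.6-fold one, ranked 11 among all genes (limma adjusted p = 7.69e-14).

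Postn (chromosome 3, 54359267 to 54391041) encodes periostin, which binds integrins and takes part in collagen crosslinking. KO mice had 6.27, 6.90 and 7.63 at the lowest, median and highest, and WT mice had 4.55, 5.32 and 6.03. The groups did not overlap, although the WT mice alone spanned more than 1 log2 unit, and the difference was 1.58 ± 0.19, or 3-fold (limma adjusted p = 4.86e-08). Thbs1 (chromosome 2, 118111876 to 118127133) encodes thrombospondin-1, which can activate latent TGF-beta. Its signals ran at 9.06, 9.54 and 10.59 in KO mice and at 8.28, 8.59 and 8.80 in WT mice. KO mice were all higher, by 1.10 ± 0.17 on average, or 2.14-fold (limma adjusted p = 4.5e-06), with KO mice 1 and 6 highest.

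Sparc (chromosome 11, 55394159 to 55420080) encodes a collagen-binding glycoprotein also called osteonectin. The lowest, median and highest values were 10.06, 10.39 and 10.73 in KO mice and 9.25, 9.33 and 9.55 in WT mice. No ranges overlapped for Sparc either, and its difference of 0.99 ± 0.09, or 1.99-fold, had the smallest error of the 9 (limma adjusted p = 7.7e-11). Ccn2 (chromosome 10, 24595442 to 24598683), formerly connective tissue growth factor, is a secreted protein induced by TGF-beta and by mechanical tension. For Ccn2 the KO mice had 9.20, 9.97 and 10.33 and the WT mice 8.89, 8.98 and 9.45 at the lowest, median and highest. These ranges overlapped through KO mouse 7 and WT mouse 1, and the difference was 0.87 ± 0.13, or 1.83-fold (limma adjusted p = 2.86e-06). A second, dimmer Ccn2 feature gave 0.16 ± 0.11 and did not pass (adjusted p = 0.315 over all features), so the Ccn2 value depends on the feature.

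The cytoskeletal genes separated just as fully. Vim (chromosome 2, 13574311 to 13582826) encodes vimentin, the intermediate filament of mesenchymal cells, which leukocytes and injured tubule cells also carry. Vim signals were 11.50, 11.91 and 12.27 in KO mice and 9.64, 9.78 and 10.0 in WT mice at the lowest, median and highest. The gap between the groups exceeded the range within either, and the difference was 2.17 ± 0.13, or 4.5-fold (limma adjusted p = 5.47e-14). A second Vim feature gave 1.80 ± 0.11 (adjusted p = 6.57e-13 over all features). Acta2 (chromosome 19, 34240336 to 34255585) encodes alpha smooth muscle actin, the defining contractile actin of myofibroblasts and of vascular smooth muscle. KO mice had 11.32, 11.56 and 11.93 for Acta2, and WT mice had 9.77, 9.95 and 10.33. All KO mice lay above all WT mice, by 1.58 ± 0.13 on average, or 2.99-fold (limma adjusted p = 2.77e-11). Tagln (chromosome 9, 45929628 to 45936058) encodes transgelin, an actin-binding protein of smooth muscle. Its lowest, median and highest signals were 8.26, 8.39 and 9.07 in KO mice and 6.58, 6.83 and 7.25 in WT mice. The Tagln groups did not overlap, and their difference of 1.60 ± 0.13, or 3.02-fold, was close to that of Acta2 (limma adjusted p = 8.45e-12).

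The promoter of Acta2 is shown because smooth muscle actin defines the myofibroblast and its control through CArG boxes, the binding motif of serum response factor, is well described, and that of Tnc because its difference was the widest. The RefSeq table of windows running from 250 bases before to 50 bases after an annotated start (GRCm38.p6) held windows for 5 of the 9 genes. Both strands were searched for the CArG box (CC, then 6 bases of A or T, then GG), CAGAC of the Smad proteins, CATTCC of the TEAD factors and TGANTCA of AP-1. The 250 bases before the starts of Acta2 (minus strand, chr19:34255374-34255623) and Tnc (minus strand, chr4:64047016-64047265) read as follows, with matches in capitals.
Acta2: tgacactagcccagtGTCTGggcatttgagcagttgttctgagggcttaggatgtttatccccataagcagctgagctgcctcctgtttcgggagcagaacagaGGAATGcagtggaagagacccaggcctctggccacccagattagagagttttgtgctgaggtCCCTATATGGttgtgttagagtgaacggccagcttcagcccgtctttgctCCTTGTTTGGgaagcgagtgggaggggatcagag
Tnc: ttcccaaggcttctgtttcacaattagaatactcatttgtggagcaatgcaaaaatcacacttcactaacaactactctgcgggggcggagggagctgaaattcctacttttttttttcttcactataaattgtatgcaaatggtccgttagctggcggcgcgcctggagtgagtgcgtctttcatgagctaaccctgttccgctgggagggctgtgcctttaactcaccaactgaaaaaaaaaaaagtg
In Acta2 the capitals mark, in order, CAGAC on the opposite strand, CATTCC on the opposite strand and a pair of CArG boxes in which 1 core base is neither A nor T. These CArG-like boxes, CCCTATATGG and CCTTGTTTGG, start 84 and 34 bases before the annotated start of this window. That start lies inside the Acta2 span given above, whose outer end on this strand is 34255585. Most of the Acta2 stretch printed, with both boxes, therefore lies within that span. The looser form was searched for after the strict form gave no match in any of the 7 windows of these genes. The looser form stood in 8.5% of all 32851 windows, the strict box in 1.63%, CAGAC in 49.6%, CATTCC in 14.7% and TGANTCA in 7.81%. No capitals appear in the Tnc stretch printed. A CAGAC on the opposite strand stood within the 50 bases after that start, and the same match lay 70 bases before a second annotated start. Another CAGAC stood within the 50 bases after the second start. Postn and Sparc windows also held CAGAC, and the Vim window held none of these letters. A match is a description of the letters in the window and not a site of binding.

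At 4 weeks none of the 9 genes passed, where 0.0406% of all genes did. Their median difference was 0.50, against -0.01 over all genes, and 7 of the 9 were above 0. When single genes were tested by exact permutation of the genotype labels (two-sided, unadjusted), 7 of the 9 gave p under 0.05. The permutation test was not run over all genes, so no share stands beside that count. By limma, another test, 9 of all genes passed, and 2044 of 22180 had an unadjusted p under 0.05.

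Fn1 and Sparc came nearest to a full separation at 4 weeks, with 7 of the 8 KO mice above every WT mouse. Fn1 signals were 8.13, 8.49 and 9.75 in KO mice and 7.29, 7.91 and 8.28 in WT mice at the lowest, median and highest, a difference of 0.82 ± 0.20 (limma adjusted p = 0.119, exact permutation p = 0.000777). For Sparc they were 9.75, 9.83 and 10.16 in KO mice and 9.23, 9.60 and 9.75 in WT mice, a difference of 0.31 ± 0.09 (limma adjusted p = 0.228, exact permutation p = 0.000311). Both genes therefore touched or overlapped by a single KO mouse, without a call over all genes.

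The other genes overlapped more. Tnc had 5.93, 6.54 and 7.77 in KO mice and 5.27, 5.90 and 6.30 in WT mice, a difference of 0.68 ± 0.21 (limma adjusted p = 0.32, exact permutation p = 0.00513). Vim had 9.79, 10.04 and 11.01 in KO mice and 9.50, 9.54 and 9.98 in WT mice, a difference of 0.51 ± 0.13 (limma adjusted p = 0.14, exact permutation p = 0.00155). The top KO value of both genes belonged to mouse 4, and the top WT value of Vim to mouse 8. Acta2 had 9.42, 9.95 and 10.84 in KO mice and 9.12, 9.37 and 9.75 in WT mice, a difference of 0.54 ± 0.13 (limma adjusted p = 0.116, exact permutation p = 0.00249). Tagln had 7.18, 7.52 and 7.90 in KO mice and 6.71, 7.00 and 7.46 in WT mice, a difference of 0.50 ± 0.13 (limma adjusted p = 0.144, exact permutation p = 0.00311). In each of these contractile genes 5 of the 8 KO mice lay above every WT mouse.

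Ccn2, Thbs1 and Postn showed the smallest separation at 4 weeks. Ccn2 had 8.71, 8.92 and 9.59 in KO mice and 8.22, 8.78 and 8.92 in WT mice, a difference of 0.32 ± 0.13 (limma adjusted p = 0.454, exact permutation p = 0.025). Thbs1 had 7.46, 7.79 and 8.66 in KO mice and 7.60, 7.87 and 8.19 in WT mice, and Postn had 5.31, 6.00 and 6.52 in KO mice and 5.71, 6.00 and 6.30 in WT mice. For Thbs1 and Postn the KO mice straddled the WT range, with 2 KO mice below every WT mouse in each. Their differences were -0.01 ± 0.17 and -0.04 ± 0.19 (limma adjusted p = 0.995 and 0.968), and 95% intervals ran at -0.35 to 0.34 for Thbs1 and at -0.43 to 0.35 for Postn. Without WT mice 5 and 8, a choice made after the data were seen, Vim passed (0.60, limma adjusted p = 0.0374) and 72 of all genes did. Without KO mouse 4, which stood apart over all genes, the estimates were 0.67 for Fn1, 0.51 for Tnc, 0.24 for Ccn2, 0.38 for Vim and 0.42 for Acta2, and none passed. Leaving out KO mouse 7 alone let Acta2 pass (0.62, limma adjusted p = 0.0412).

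**Figure D2:**
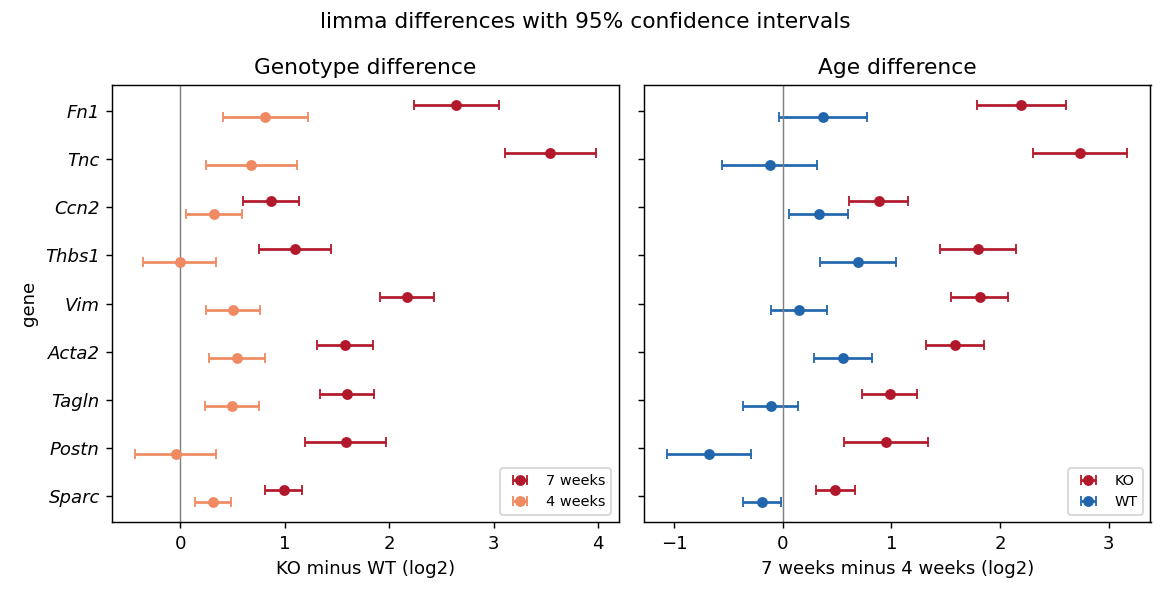
Differences with 95% confidence intervals from limma for each gene, on the log2 scale. The left panel gives KO minus WT at 7 weeks (dark red) and at 4 weeks (orange), and the right panel gives 7 minus 4 weeks in KO mice (dark red) and in WT mice (blue). Every 7-week genotype interval lies above 0, while those of Thbs1 and Postn at 4 weeks span it.

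The genotype difference was larger at 7 than at 4 weeks for all 9 genes in the limma interaction test, which 17% of all genes passed and 9.8% passed in this direction. The widening had a median of 1.10 over the 9 genes, against -0.04 over all genes. Tnc widened most, by 2.86 ± 0.30 (limma adjusted p = 1.78e-07), followed by Fn1 (1.83 ± 0.28, limma adjusted p = 2.56e-05). Vim (1.66 ± 0.18, limma adjusted p = 2.22e-07) and Postn (1.63 ± 0.27, limma adjusted p = 6.02e-05) came next. Postn and Thbs1 (1.10 ± 0.24, limma adjusted p = 0.0014) were the 2 genes whose 4-week estimates lay near 0. Tagln (1.10 ± 0.18, limma adjusted p = 4.67e-05), Acta2 (1.04 ± 0.19, limma adjusted p = 0.000155) and Sparc (0.68 ± 0.12, limma adjusted p = 0.000176) already had positive estimates at 4 weeks. Ccn2 had the smallest interaction, 0.55 ± 0.19 (limma adjusted p = 0.0369). That call was lost in 16 of 32 fits leaving out 1 mouse, with adjusted p running up to 0.0702.

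Between 4 and 7 weeks the genes took different courses in KO and WT mice. In KO mice all 9 rose, by a median of 1.59, where 42.6% of all genes passed in either direction and 21.4% as higher at 7 weeks. The increases were 2.74 for Tnc, 2.20 for Fn1, 1.81 for Vim, 1.80 for Thbs1, 1.59 for Acta2, 0.98 for Tagln, 0.95 for Postn, 0.88 for Ccn2 and 0.48 for Sparc (limma adjusted p between 3.05e-12 and 0.000124). For 6 of the 9, every KO mouse at 7 weeks lay above every KO mouse at 4 weeks, as did 6.89% of all genes; Ccn2, Postn and Sparc overlapped.

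In WT mice 2 genes rose, 1 fell and 6 did not pass, where 29.5% of all genes passed in either direction, 15.4% as higher and 14.1% as lower at 7 weeks. Thbs1 was 0.69 ± 0.17 higher at 7 than at 4 weeks (limma adjusted p = 0.00216) and Acta2 was 0.55 ± 0.13 higher (limma adjusted p = 0.00153). Both separated fully, with every WT mouse at 7 weeks above every WT mouse at 4 weeks, which 7.38% of all genes did. Postn fell by 0.68 on the log2 scale (SE 0.19, limma adjusted p = 0.00636), although 2 of the 8 older WT mice remained within the younger range. In the 6 others the differences were 0.37 for Fn1, 0.33 for Ccn2, 0.15 for Vim, -0.11 for Tagln, -0.12 for Tnc and -0.19 for Sparc (limma adjusted p between 0.0587 and 0.73). In a fit of the WT groups alone Fn1 and Ccn2 passed too (limma adjusted p = 0.0455 and 0.0147).

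Set side by side, the group means fell into more than 1 order. KO mice at 7 weeks had the highest mean for each gene. Fn1 and Vim came next in KO mice at 4 weeks, then in WT mice at 7 weeks and then in WT mice at 4 weeks, and each of these lower neighbours overlapped in range. For Acta2 and Ccn2 the means of WT mice at 7 weeks and KO mice at 4 weeks were nearly equal, 9.99 and 9.98 for Acta2 and 9.04 and 9.03 for Ccn2. Thbs1 followed age in its lower groups, with a mean of 8.57 in WT mice at 7 weeks against 7.87 in KO mice and 7.88 in WT mice, both at 4 weeks. All WT mice at 7 weeks lay above all WT mice at 4 weeks for Thbs1, whereas KO mouse 4 at 4 weeks (8.66) reached into their range. Tnc, Tagln and Sparc had their lowest mean in WT mice at 7 weeks, below WT mice at 4 weeks, with overlapping ranges. Postn had its lowest mean, 5.33, in WT mice at 7 weeks as well, while KO and WT mice at 4 weeks averaged 5.97 and 6.01.

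The same mice tended to be high for several genes. KO mice 1, 4, 6 and 8 at 7 weeks held the 4 highest KO values of all 9 genes, and they were also the 4 highest along the leading component, into which these genes enter. These 4 mice also had the highest KO means of the macrophage and of the T cell markers at 7 weeks. The share of all genes with the same 4 mice on top was not counted, so this order is not read as particular to the 9 genes. KO mouse 6 was highest in 6 genes and KO mouse 3 lowest in 5. The lower 4 KO mice still lay above every WT mouse of that age in each gene, except for Ccn2 in KO mouse 7. At 4 weeks, KO mouse 4 was highest of its group in 7 genes (Fn1, Tnc, Ccn2, Thbs1, Vim, Acta2 and Sparc) and lowest in Postn. The mean of the 9 genes was 8.96 in KO mouse 4, against 8.11 to 8.50 in the 7 other KO mice of that age.

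**Figure D3:**
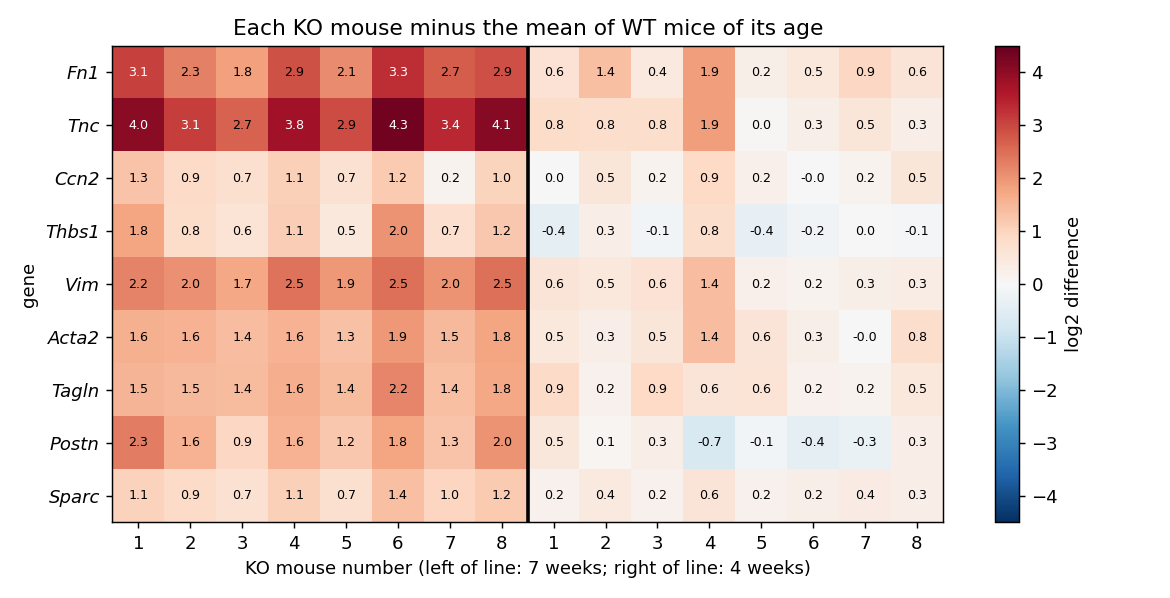
Each KO mouse minus the mean of the 8 WT mice of its own age, on the log2 scale, with genes in rows and mice in columns (7 weeks left of the line, 4 weeks right). Red is above and blue below the WT mean. Mice 1, 4, 6 and 8 form the deepest columns at 7 weeks, and at 4 weeks mouse 4 stands out in 7 genes and is lowest in Postn.

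A total of 6 pairs of genes were compared across the 8 mice within each group. No coefficient is given for KO mice at 7 weeks, because those mice formed 2 sets, or for 4 further pairs in which the mice of a gene split at a gap wider than 0.5 of the range. Of the 14 relations left (adjusted over 19 computed), Acta2 and Tagln correlated in WT mice at 4 weeks (Pearson r = 0.866, exact permutation p = 0.00645, adjusted p = 0.0439; Spearman rho = 0.81, exact permutation p = 0.0218, adjusted p = 0.0591). Without the 2 mice farthest from the median of Acta2, r was 0.81. Ccn2 and Thbs1 correlated in KO mice at 4 weeks (r = 0.847, exact permutation p = 0.00925, adjusted p = 0.0439; rho = 0.762, exact permutation p = 0.0368, adjusted p = 0.0873), but r was 0.322 without the 2 farthest mice, so the relation rests on them. Acta2 and Fn1 passed by rank alone in WT mice at 7 weeks (rho = 0.857, exact permutation p = 0.0107, adjusted p = 0.0407; r = 0.592, adjusted p = 0.217). The 11 others passed by neither coefficient. The 19 include 5 relations in KO mice at 7 weeks that are not given, and the smallest p of each coefficient was among those 5. The adjusted p-values printed here therefore depend on relations set aside. An adjustment over the 14 alone was not made, so no pair is read as related on the strength of these calls.

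Genes outside the 9 were set beside them by the correlation of deviations from group means over the 32 mice, which share arrays and normalization. Fn1 and Sparc had the same closest companion, Bmp1, a proteinase that processes procollagens (r = 0.88 and 0.882). Thbs1 came closest to the integrin chain Itga3 (0.898), Vim to the receptor kinase Axl (0.895) and Ccn2 to the immediate early transcription factor Nr4a1 (0.868). Acta2 was nearest to Tagln2, a relative of transgelin (0.783), Tagln itself to Clca3a1 (0.778), Postn to the matricellular gene Smoc2 (0.756) and Tnc to Nfkbiz (0.836). Second companions were Lrp1 for Fn1 (0.88), Nid1 for Sparc (0.868), Cdh3 for Thbs1 (0.886), Icam1 for Vim (0.874), Myadm for Ccn2 (0.795), Aoc1 for Acta2 (0.747), Anxa3 for Tagln (0.762), Slf2 for Postn (0.736) and Ctxn1 for Tnc (0.835). Over the 24 mice outside the KO group at 7 weeks, Nr4a1 stayed first for Ccn2 (0.919), while first place changed for the 8 others. The companions named above had r from 0.707 (Tnc and Nfkbiz) to 0.919 over those 24 mice. Companions were picked as the highest r over all genes, so a high r was built into the choice.

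Related genes from lists chosen with earlier results of these data known give the setting at 7 weeks. For each list below, the share of all genes to set beside its counts is 15.6% higher and 16.7% lower in KO mice. Of 23 measured matricellular relatives 13 rose, 2 fell and 8 did not pass, with a median of 0.34 against -0.06 over all genes. Among those that rose were the TGF-beta-induced protein Tgfbi (1.99 ± 0.12), the calcification inhibitor Mgp (1.91 ± 0.12), Thbs2 (1.99 ± 0.15) and Ccn4 (1.22 ± 0.11), with limma adjusted p at most 1.5e-10, while Tnr stood at -0.21 and Thbs3 at 0.14. Ccn1, a close relative of Ccn2 picked after its value was seen, rose by 1.59 ± 0.17 (limma adjusted p = 3.24e-09). At 4 weeks Mgp (0.75 ± 0.12, limma adjusted p = 0.00904) and Tgfbi (0.65 ± 0.12, limma adjusted p = 0.0215) were the only genes of any list to pass, both higher in KO mice. Their estimates were no larger than that of Fn1 (0.82 ± 0.20), whose error was wider.

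Of 21 contractile genes 15 rose, 1 fell and 5 did not pass, with a median of 0.47. The rises included the tropomyosins Tpm1 (1.34 ± 0.10) and Tpm4 (1.22 ± 0.12), the actin crosslinker filamin A, Flna (1.75 ± 0.13), and caldesmon, Cald1 (0.97 ± 0.09), with limma adjusted p at most 3.8e-10. Smoothelin, Smtn (-0.08), and the myosin kinase Mylk (0.05) did not pass. Further muscle genes were picked after their values were seen, and they did not share a direction: the smooth muscle myosin Myh11 stood at -0.05 ± 0.10 (limma adjusted p = 0.751), the enteric actin Actg2 at 0.01 ± 0.14 (limma adjusted p = 0.957), and leiomodin, Lmod1, was lower in KO mice by -0.35 ± 0.09 (limma adjusted p = 0.00227). Picked likewise, desmin, Des (0.85 ± 0.09, limma adjusted p = 1.29e-08), the tropomyosin Tpm2 (0.32 ± 0.10, limma adjusted p = 0.016), calponin, Cnn1 (0.43 ± 0.11, limma adjusted p = 0.00293), and the light chain Myl9 (0.44 ± 0.09, limma adjusted p = 0.000252) rose.

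Of 9 other intermediate filament genes 7 rose and 2 did not pass, with a median of 0.65. The keratins of simple epithelia Krt18 (1.66 ± 0.19), Krt8 (0.81 ± 0.12) and Krt19 (1.30 ± 0.19) rose beside nestin, Nes (0.91 ± 0.11), with limma adjusted p at most 1.36e-06, whereas Synm (-0.06) and Gfap (0.00) did not pass. Receptors for these matrix proteins rose in 15 of 19 cases, fell in 1 and did not pass in 3, with a median of 0.50. Cd44, the hyaluronan receptor, rose by 3.18 ± 0.19 and the collagen-binding integrin chain Itga2 by 1.68 ± 0.14. The fibronectin receptor chains Itga5 (1.02 ± 0.09) and Itgb1 (0.68 ± 0.08) rose too, with limma adjusted p at most 1.3e-08 for all 4, while Itga8 (0.17) and Sdc4 (0.09) did not pass. Cd36, a receptor for thrombospondin-1 picked after its value was seen, was the gene of that list that fell, by 0.70 on the log2 scale (limma adjusted p = 0.00172).

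Of 23 TGF-beta and mechanosensing genes 13 rose and 10 did not pass, with a median of 0.30. Ankrd1, a target of YAP and TAZ, rose by 2.59 ± 0.19, the collagen crosslinker Lox by 1.94 ± 0.17, the latent TGF-beta binding protein Ltbp2 by 1.60 ± 0.16 and Tgfb3 by 1.11 ± 0.12 (limma adjusted p at most 6.1e-09). Ltbp1 (0.24) and Tead1 (0.22) did not pass. The next regulators were picked after their values were seen. The ligand Tgfb1 rose by 1.12 ± 0.13 (limma adjusted p = 4.36e-08), while the transcripts of Yap1 (0.04), Wwtr1 (0.02), which encodes TAZ, and serum response factor, Srf (-0.01), did not pass (limma adjusted p between 0.671 and 0.937). The SRF cofactors Mrtfa (0.35 ± 0.11, limma adjusted p = 0.0114) and Mrtfb (0.39 ± 0.11, limma adjusted p = 0.00682) rose, while the cofactor Myocd (0.10, limma adjusted p = 0.429) did not pass.

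**Figure D4:**
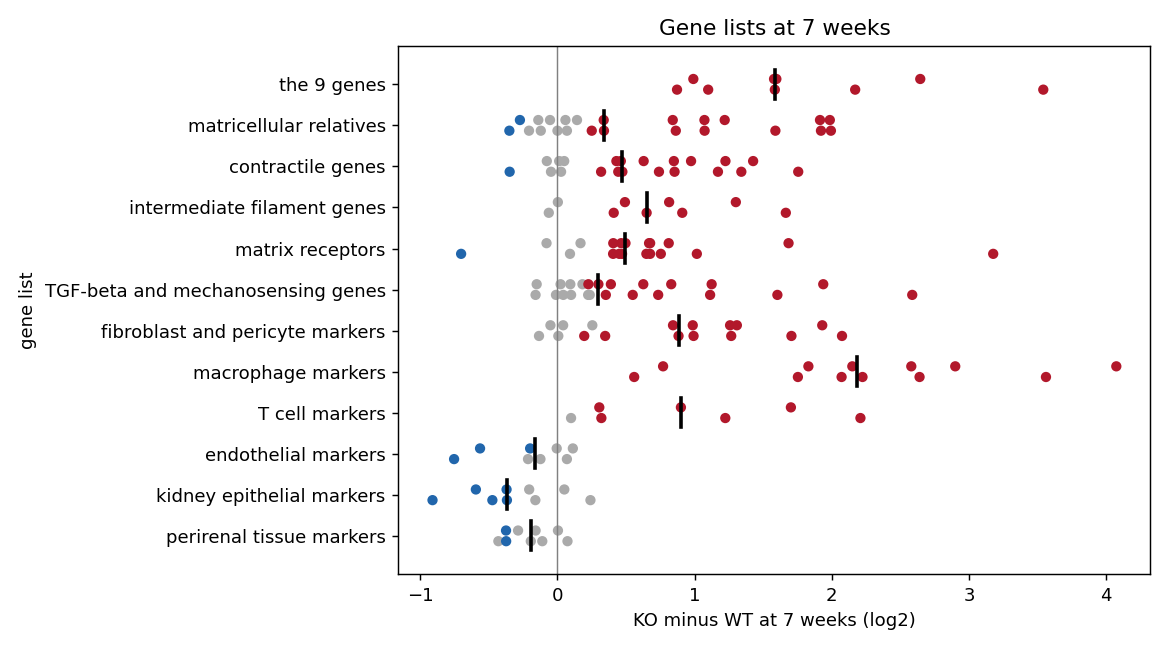
KO minus WT at 7 weeks for each measured gene of each list, on the log2 scale. Points are genes, red for those higher in KO, blue for those lower and grey for those that did not pass, and vertical ticks are medians. The 9 genes have a median of 1.58, and the macrophage markers, at 2.19, are the one list with a higher median.

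Markers of several cell types moved at 7 weeks as the 9 genes did. Of 17 fibroblast and pericyte markers 12 rose and 5 did not pass, with a median of 0.88. The collagens Col1a1 (1.93 ± 0.17), Col1a2 (1.71 ± 0.11) and Col3a1 (2.07 ± 0.14) rose with decorin, Dcn (1.26 ± 0.12), with limma adjusted p at most 4.99e-10, while Cspg4 (0.25) and Meox1 (-0.13) did not pass. The mean of this list per mouse ran at 7.11 to 7.63 for KO against 6.51 to 6.65 for WT at 7 weeks, and at 6.77 to 6.98 for KO against 6.59 to 6.86 for WT at 4 weeks. All 12 macrophage markers rose, with a median of 2.19, among them Lyz2 (4.07 ± 0.30), Cd14 (3.56 ± 0.26), Cd68 (2.64 ± 0.19) and Mrc1 (2.15 ± 0.17), with limma adjusted p at most 1.74e-11. Their mean per mouse ran at 8.09 to 9.44 for KO against 6.44 to 6.69 for WT at 7 weeks, and at 6.65 to 7.43 for KO against 6.40 to 7.33 for WT at 4 weeks. Of 7 T cell markers 6 rose (Il7r by 2.21 ± 0.20, Cd3g by 1.70 ± 0.25, Cd3e by 1.22 ± 0.15 and Cd4 by 0.90 ± 0.16, limma adjusted p at most 2.17e-05), and Cd3d (0.10) did not pass. The T cell means ran at 5.85 to 6.64 for KO against 5.13 to 5.33 for WT at 7 weeks. Vim is carried by leukocytes as well as by fibroblasts, and the part of these cells in the values of the 9 genes was not tested.

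Of 9 kidney epithelial markers 5 fell and 4 did not pass, with a median of -0.37. The glucose transporter Slc5a2 differed by -0.91 ± 0.17, the sodium chloride transporter Slc12a3 by -0.59 ± 0.14, the phosphate transporter Slc34a1 by -0.37 ± 0.10 and the endocytic receptor Lrp2 by -0.47 ± 0.14 (limma adjusted p at most 0.00763), while Aqp2 (0.24) and Slc12a1 (-0.21) did not pass. Of 8 endothelial markers 3 fell, namely Kdr (-0.75 ± 0.14), Ehd3 (-0.56 ± 0.11) and Tek (-0.20 ± 0.06), with limma adjusted p at most 0.0133, and 5 did not pass, among them Tie1 (-0.21) and Egfl7 (-0.12). Of 9 markers of fat, adrenal, urothelium and muscle around the kidney, Adipoq (-0.37 ± 0.08) and Myh4 (-0.37 ± 0.14) were lower in KO mice (limma adjusted p = 0.000635 and 0.035) and 7 did not pass. None of those perirenal markers was higher in KO mice at 7 weeks. Of all genes 16.7% were lower at that age as deposited, the setting of these list counts. After array median centring 8324 of 22180 were lower, and list counts after centring are not given here. The endothelial and perirenal lists hold only 8 and 9 genes, and their small counts are not read as a trait of those cells.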

How the data were processed

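Total RNA from whole kidney was hybridised to 32 arrays, 8 mice in each of 4 groups, grouped by the genotype and age in the labels. The authors deposited gene-level values on the log2 scale, which per the labels are RMA values from Affymetrix Expression Console (version not stated). No scanner file or scan date was used here. Of 41345 features, 23521 named 1 gene, 1814 several and 16010 none. The brightest feature of each gene named alone gave 22180 genes, with no filter on low values. One limma 3.58.1 model (R 4.3.3) of 4 group means left 28 degrees of freedom, and variances were moderated with no trend. Its 5 comparisons were adjusted by Benjamini-Hochberg over all genes and called at 0.05. Tested on simulated data of 22180 genes for the 7-week comparison, it recovered 103 of 104 changes of size 1 and 96 of 96 of size 2 on the log2 scale, with 12 false calls. Exact permutation tests used numpy 2.4.6 in Python 3.11.15, with ranks from scipy 1.17.1. Promoter windows came from RefSeq (GRCm38.p6). The members and lists were chosen with earlier results of these data known. Genes were named by rule: the 9 members, Col4a3, per list up to 4 called genes of smallest p and 2 uncalled genes of largest difference at 7 weeks, list genes called at 4 weeks, and 2 companions per member by correlation. Others are said to be picked after their values were seen. Some list genes were not analysed here and are not reported. Each mouse was a separate sample, and the main model did not pair mice by replicate number. The alternatives tried were array median centring, array weights, a minimum mean of 5, other handling of features, fits of the compared groups alone, a replicate block and leaving out mice.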

Additional observations from a re-analysis of the deposited data

Results flagged for a closer look

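In 4 cases a value stood apart from the other 7 mice of its group, by a gap above Dixon's 95% critical value for 8 samples. They were Tnc (7.77) and Vim (11.01) in KO mouse 4 at 4 weeks, Tagln (9.07) in KO mouse 6 at 7 weeks and Ccn2 (8.22), the lowest value, in WT mouse 2 at 4 weeks. With 36 groups tested, chance flags about 1 in 20.

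The KO minus WT difference was larger at 7 than at 4 weeks for each of the 9 genes by the limma interaction test. The widening was 1.83 for Fn1, 2.86 for Tnc, 0.55 for Ccn2, 1.10 for Thbs1, 1.66 for Vim, 1.04 for Acta2, 1.10 for Tagln, 1.63 for Postn and 0.68 for Sparc on the log2 scale, with n = 8 mice per group. The second feature of Ccn2 gave -0.04 ± 0.15.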

How the results depend on the processing

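All 225 repeats of the 7-week genotype results of the 9 genes, and all 234 of the age results in KO mice, kept direction and call. At 4 weeks 229 of 243 did. Vim passed without WT mice 5 and 8 (1 of the 9 genes and 72 of all genes called) and Acta2 without KO mouse 7. Thbs1, at -0.12 to 0.054 over fits leaving out 1 mouse, turned positive in 8 of 16, and Postn, at -0.12 to 0.053, in 3; Postn was 0.080 (adjusted p = 0.942) without KO mice 4 and 5. The 4-week count over all genes was 1 in a fit of only those groups, 5 with array weights, 1 without KO mice 4 and 5, and 3 to 24 leaving out 1 mouse, where 0 to 1 of the 9 genes passed. Leaving out pairs of mice was chosen after the data were seen.

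The Ccn2 interaction lost its call with array median centring (adjusted p = 0.0683), the mean of all features (0.134), each feature tested alone (0.0617) and without WT mice 5 and 8 at 4 weeks (0.0552), and in 16 of 32 fits leaving out 1 mouse, where 8 to 9 of the 9 genes passed. In WT mice over age, 5 of the 9 genes passed in a fit of the WT groups alone (Fn1 and Ccn2 added) and 3 to 4 leaving out 1 mouse. Ccn2 also passed there after centring (adjusted p = 0.0389) and with a minimum mean of 5 (0.0433), and Sparc with array weights (-0.20, 0.0471).

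Array medians differed by 0.114 between KO and WT mice at 7 weeks. Centring them took that amount from each 7-week difference, left all 9 genes called and the sign of every list median as it was, and moved the count over all genes to 10892 (2568 higher and 8324 lower), so that 23.6% of calls were higher, against 48.4% as deposited. Tested feature by feature, 14557 passed over age in KO mice and 10574 in WT mice. Leaving out 1 mouse gave 6310 to 7468 for genotype at 7 weeks, 3187 to 4293 for the interaction, 8734 to 9984 for age in KO mice and 5876 to 6534 for age in WT mice. The cause of these shifts was not tested.

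Replicate numbers showed no clear pairing of the mice. Same-numbered deviations correlated at -0.27 to 0.232 over 48 pairs of samples, 9 of them over 0.1. In 10 of 48 the best match among 8 mice bore the same number, and how many would by chance was not tested. The check follows the numbers alone and could not see shared litters. A replicate block gave 7, 7067, 3743, 9397 and 6473 calls over all genes (genotype at 4 weeks, at 7 weeks, interaction, age in KO, age in WT) and changed no call of the 9 genes. Exact permutation tests, which carry no adjustment over genes and were not run over all genes, gave p under 0.05 for 7 of the 9 at 4 weeks. Signal over background was not analysed here, so dim features such as the second one of Ccn2 have no detection limit.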
